A study of Homo sapiens with 6 samples.

Results

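The genes examined were 9 genes of MHC class I antigen presentation in A375 cells, a human melanoma line, chosen by name: HLA-B, HLA-C, HLA-E, HLA-F, B2M, TAP1, TAP2, TAPBP and NLRC5, among 58302 gene IDs in the count tables. Bulk RNA sequencing of poly(A)-selected RNA covered 3 libraries of cells labelled with the genotype Empty vector and 3 libraries labelled HMGB2OE. Both lines carried a lentiviral vector, and the second stably overexpressed HMGB2, a DNA-bending chromatin protein. The study asked what transcriptional effect this overexpression has. Each replicate was a pellet of cells, described as technical, so every p-value below measures the spread between pellets of 1 line per group and not between independent transductions.

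MHC class I molecules show peptides from inside the cell to CD8+ T cells. A heavy chain (HLA-B, HLA-C and the less variable HLA-E and HLA-F) pairs with the small invariant chain B2M. TAP1 and TAP2 form the transporter that moves peptides into the endoplasmic reticulum, TAPBP (tapasin) holds the empty heavy chain beside that transporter, and NLRC5 is a transactivator of class I genes. HLA-E is also the ligand of the NKG2A receptor of natural killer cells. Loss of this machinery is a known route by which melanomas escape T cells.

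No member passed the test between HMGB2 overexpression and empty vector cells. With DESeq2 and a Benjamini-Hochberg adjusted p under 0.05, 0 of 9 members were called higher and 0 of 9 lower, whereas 2.29% of the 18836 genes tested were called higher and 2.64% lower. With edgeR 0 of 9 were called in either direction, beside 1.28% of 16754 genes called higher and 1.52% lower. At an unadjusted p under 0.05 the members held 1 gene with DESeq2 (HLA-E) and 2 with edgeR (HLA-E and TAP2), where 14.3% and 16.5% of all genes tested lay under that value. Of the 9 log2 fold changes, 7 were negative and 2 positive, with a median of -0.11 beside 0.00 over all genes tested. HLA-E was the 1 member whose overexpression libraries all lay below all empty vector libraries, a pattern found in 10.7% of genes tested. No member had every overexpression library above every empty vector library, against 11.1% of genes tested.

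The overexpressed gene and the libraries were checked first. HMGB2 had normalized counts (counts divided by the DESeq2 size factor) of 7250, 7729 and 7562 in the empty vector libraries and 15095, 16848 and 14609 in the overexpression libraries, each given in the order of the replicate numbers, a log2 fold change of 1.05 (SE 0.10, DESeq2 Benjamini-Hochberg adjusted p = 4.4e-22). Reads from the vector and the endogenous gene were counted together. Between 45925053 and 56755212 reads were assigned to genes per library. Multimapped reads, which enter no gene, were 2.58% to 3.96% of empty vector and 3.32% to 10.6% of overexpression libraries (exact two-sided permutation p = 0.2), and their part in the HLA counts was not tested. Empty vector replicate 3 stood apart from its own group: the chi-square per gene between its counts and those of empty vector replicates 1 and 2 was 84 and 92.6, against 15.1 between those replicates and 37.8 between it and overexpression replicate 3. Its HMGB2 count was that of an empty vector library. Overexpression replicate 3, the library with 10.6% multimapped reads, lay at 25.9 and 40.4 from overexpression replicates 1 and 2, which were 18.6 apart. From empty vector replicates 1 and 2 it lay at 116 and 114. Of the melanoma markers, MITF, S100B and CSPG4 were well counted in every library. Others were scarce: MIA held 12 to 29 reads, TYRP1 7 to 24, MLANA 3 to 11, DCT 0 to 5 and TYR at most 1. S100A1 (98 to 184 reads), PMEL (50 to 68) and SOX10 (0) were low in the column used. With the stranded columns summed, they held 6110 to 9590, 1529 to 2017 and 28863 to 56464 reads per library. The first stranded column held 50.1% to 50.2% of the stranded reads in every library, so the reads carry no strand. In that sum a read on exons shared by genes on opposite strands counts for both genes. Which gene such reads came from was not tested. The leukocyte markers PTPRC and MS4A1 were at 0 in all 6 libraries. CSF1R (10 to 45 reads), CD8A (4 to 18) and CD14 (1 to 8) were counted in every library. The leukocyte list, most of it LYZ, summed to normalized counts of 523 to 559 in empty vector and 592 to 735 in overexpression libraries, and its part in the results below was not tested.

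Of the 9 members, 7 lie on chromosome 6 (hg38), with B2M on chromosome 15 and NLRC5 on chromosome 16. Promoter sequences from RefSeq (GRCh38.p14, 250 bases before to 50 bases after the annotated start) were matched for 7 of 9 members and not for HLA-E and NLRC5. The promoters of HLA-B, B2M and TAP2 are shown, as a heavy chain, the invariant chain and a transporter subunit; B2M and TAP2 are also members whose call depended on a library. They are at chr6:31357130-31357429 (minus strand), chr15:44711267-44711566 (plus strand) and chr6:32838690-32838989 (minus strand), each written 5′ to 3′ on the strand of the gene. Capitals mark matches on either strand to CCAAT (the CCAAT box), to TGACG (a core of CRE sites), to GAAANNGAA (a core of interferon response elements) or to GGGNNTTCC (a core of NF-kB sites).
HLA-B: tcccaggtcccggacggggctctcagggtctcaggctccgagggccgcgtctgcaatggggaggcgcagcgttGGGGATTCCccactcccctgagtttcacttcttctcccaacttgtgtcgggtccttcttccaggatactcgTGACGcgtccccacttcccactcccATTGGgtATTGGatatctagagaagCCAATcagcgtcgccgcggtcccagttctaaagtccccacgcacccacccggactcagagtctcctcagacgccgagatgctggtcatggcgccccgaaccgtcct
B2M: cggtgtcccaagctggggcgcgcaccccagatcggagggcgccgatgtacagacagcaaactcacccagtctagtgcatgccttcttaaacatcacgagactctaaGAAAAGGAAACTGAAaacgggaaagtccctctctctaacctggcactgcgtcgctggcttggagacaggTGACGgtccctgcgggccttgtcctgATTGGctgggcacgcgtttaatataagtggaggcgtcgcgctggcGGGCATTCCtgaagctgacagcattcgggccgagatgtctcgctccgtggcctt
TAP2: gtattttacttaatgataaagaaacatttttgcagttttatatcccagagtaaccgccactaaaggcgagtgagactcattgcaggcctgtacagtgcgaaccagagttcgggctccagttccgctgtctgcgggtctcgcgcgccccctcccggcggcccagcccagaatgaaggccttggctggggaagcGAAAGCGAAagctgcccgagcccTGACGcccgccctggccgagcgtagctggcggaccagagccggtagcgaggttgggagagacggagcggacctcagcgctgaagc

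CCAAT was present in 5 of the 7 promoters (HLA-B, HLA-C, HLA-F, B2M and TAP1) and in 34.6% of 35116 promoters of this length. TGACG was present in 4 of 7 (HLA-B, HLA-C, B2M and TAP2) and in 24.6% of all. GAAANNGAA was present in 5 of 7 (HLA-F, B2M, TAP1, TAP2 and TAPBP) and in 8.11% of all. B2M, TAP1 and TAPBP each hold a pair of overlapping matches to it, printed for B2M as 1 run of capitals. GGGNNTTCC was present in 3 of 7 (HLA-B, B2M and TAPBP) and in 6.58% of all, and CACGTG, an E box, in 0 of 7 and in 7.26% of all. These are letter matches and were not tested as binding sites.

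Among the heavy chains, HLA-E (ENSG00000204592, chromosome 6, 30489509 to 30494194, plus strand) came nearest to the threshold. Its normalized counts were 9870, 9018 and 8638 in the empty vector libraries (9175 ± 631, SD, n = 3) and 7504, 7653 and 7390 in the overexpression libraries (7516 ± 132, SD, n = 3). Every overexpression library lay below every empty vector library. The log2 fold change was -0.29 (SE 0.10, 95% interval -0.48 to -0.10), with a Benjamini-Hochberg adjusted p of 0.0578 in DESeq2 and 0.12 in edgeR. Without empty vector replicate 3 it was -0.33 with a DESeq2 adjusted p of 0.00179, and without empty vector replicate 1 it was -0.23 with a DESeq2 adjusted p of 0.65.

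HLA-B (ENSG00000234745, chromosome 6, 31353872 to 31367067, minus strand), a classical heavy chain, had normalized counts of 9173, 8375 and 8043 in empty vector and 7465, 8044 and 7025 in overexpression libraries. The groups met at 1 point, where overexpression replicate 2 exceeded empty vector replicate 3 by 1 count. HLA-B had a log2 fold change of -0.18 (SE 0.11, 95% interval -0.39 to 0.03; DESeq2 Benjamini-Hochberg adjusted p = 0.454). Of the 50-base words of HLA-B transcripts, 42.3% also occurred in other genes, most often DHFRP2, which held at most 1 read. DHFRP2 shares 1421 exon bases with HLA-B on the same strand, so a read on those bases may count for neither gene. A further 14.5% of HLA-B's exon bases are shared with a gene on the opposite strand. The column used held 84% of the count of HLA-B in the summed stranded columns, which may include reads of that gene.

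HLA-C (ENSG00000204525, chromosome 6, 31268749 to 31272130, minus strand), the other classical chain examined, had normalized counts of 12419, 12013 and 11163 against 11177, 11758 and 10455, and the groups overlapped. Its log2 fold change was -0.09 (SE 0.10, 95% interval -0.29 to 0.10; DESeq2 Benjamini-Hochberg adjusted p = 0.79). HLA-F (ENSG00000204642, chromosome 6, 29722775 to 29738528, plus strand) was scarce, at 140, 147 and 122 against 111, 131 and 125. Its groups also overlapped, and its log2 fold change was -0.16 (SE 0.20, 95% interval -0.56 to 0.23; DESeq2 Benjamini-Hochberg adjusted p = 0.828). The column used held 37.9% of the count of HLA-F in the summed stranded columns. Of HLA-F's exon bases, 28% are shared with genes on the opposite strand, so that sum may include reads of those genes. Reads were assigned to the reference alleles of all 4 heavy chains, and how the alleles of A375 cells affect their counts was not tested.

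B2M (ENSG00000166710, chromosome 15, 44711358 to 44718851, plus strand) had the largest positive log2 fold change of the 9. Its normalized counts were 33732, 34279 and 46664 in empty vector libraries (38225 ± 7313, SD, n = 3) and 46706, 41671 and 50745 in overexpression libraries (46374 ± 4546, SD, n = 3). Empty vector replicate 3 lay among the overexpression libraries, and the other two empty vector libraries lay below all of them. The log2 fold change was 0.28 (SE 0.15, 95% interval -0.02 to 0.58), with a Benjamini-Hochberg adjusted p of 0.406 in DESeq2 and 0.372 in edgeR. Without empty vector replicate 3 it was 0.45 with a DESeq2 adjusted p of 7.71e-05. Leaving out any other single library gave 0.19 (without empty vector replicate 1) to 0.35 (without overexpression replicate 2). B2M was called in none of those fits.

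B2M transcripts have a GC content of 38.9%, the lowest of the members (47.2% to 62.7% in the others). The shift fitted from GC content and transcript length, in log2 units, was -0.16, -0.12 and 0.20 for B2M in the empty vector libraries and 0.01, -0.09 and 0.16 in the overexpression libraries. After correction for it, the B2M log2 fold change was 0.24 with a DESeq2 Benjamini-Hochberg adjusted p of 0.0286.

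**Figure D1:**
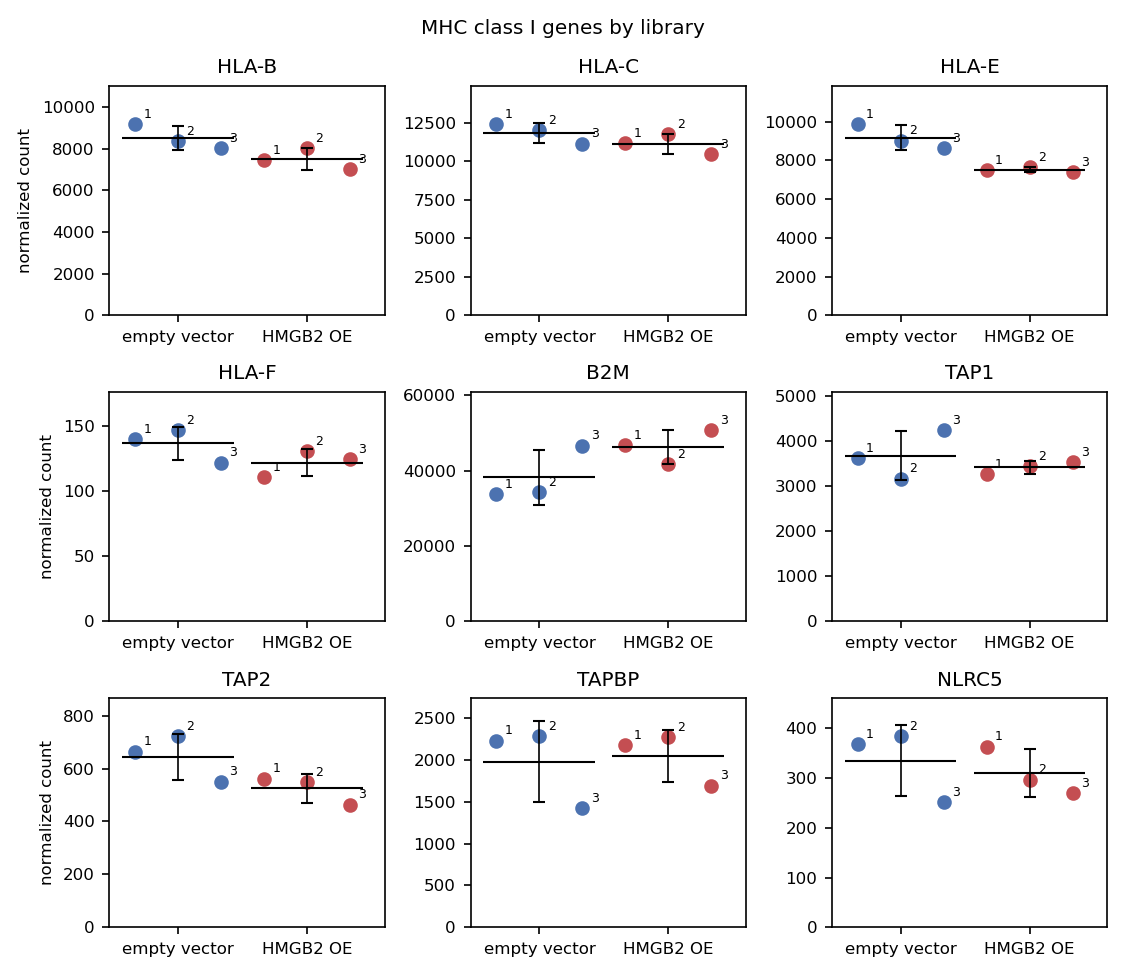
Normalized counts of the 9 members (y axis from 0) in each library, with the replicate number beside each point; blue is empty vector, red is HMGB2 overexpression, lines are means and bars are SD (n = 3). HLA-E is the 1 panel in which the groups do not overlap, and in B2M empty vector replicate 3 (46664) lies among the overexpression libraries.

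The transporter subunits differed in how their libraries were spread. TAP2 (ENSG00000204267, chromosome 6, 32821833 to 32838739, minus strand) had normalized counts of 664, 722 and 551 in empty vector and 562, 550 and 464 in overexpression libraries. Empty vector replicate 3 lay below overexpression replicate 1, and the other two empty vector libraries lay above the whole overexpression group. TAP2 had a log2 fold change of -0.30 (SE 0.15, 95% interval -0.60 to 0.01; Benjamini-Hochberg adjusted p = 0.365 with DESeq2 and 0.301 with edgeR). Without empty vector replicate 3 it was -0.40 with a DESeq2 adjusted p of 0.0291. Leaving out any other single library gave -0.21 (without empty vector replicate 2) to -0.35 (without overexpression replicate 1). TAP2 was called in none of those fits. Of TAP2's exon bases, 19.5% are shared with another gene. For TAP1 (ENSG00000168394, chromosome 6, 32845209 to 32853816, minus strand) the column used held 81.5% of the count in the summed stranded columns. Of TAP1's exon bases, 14.2% are shared with genes on the opposite strand. TAP1 had normalized counts of 3615, 3160 and 4232 against 3264, 3433 and 3532, with the overexpression libraries inside the empty vector range. Its log2 fold change was -0.11 (SE 0.13, 95% interval -0.36 to 0.15; DESeq2 Benjamini-Hochberg adjusted p = 0.829) and 0.01 without empty vector replicate 3.

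TAPBP (ENSG00000231925, chromosome 6, 33299694 to 33314284, minus strand) had normalized counts of 2229, 2280 and 1422 in empty vector and 2171, 2271 and 1690 in overexpression libraries. The third replicate was the lowest of both groups. The log2 fold change was 0.05 (SE 0.19, 95% interval -0.33 to 0.43; DESeq2 Benjamini-Hochberg adjusted p = 0.961) and -0.14 without empty vector replicate 3. NLRC5 (ENSG00000140853, chromosome 16, 56989485 to 57083531, plus strand) had normalized counts of 368, 384 and 252 against 363, 297 and 270. Its lowest value was again in empty vector replicate 3, and the groups overlapped. NLRC5 had a log2 fold change of -0.11 (SE 0.20, 95% interval -0.51 to 0.29; DESeq2 Benjamini-Hochberg adjusted p = 0.899). Leaving out 1 library moved the NLRC5 value between -0.27 (without empty vector replicate 3) and -0.00 (without empty vector replicate 2), and it was -0.24 without overexpression replicate 1 and -0.02 without overexpression replicate 3.

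Because empty vector replicate 3 decided several values, the members were counted again without it. In that DESeq2 fit 1 member was called higher (B2M) and 2 lower (HLA-E and TAP2), while 8.31% of 16062 genes tested were called higher and 9.46% lower. With replicates 1 and 2 of both groups alone, 1 member was called higher (B2M, log2 fold change 0.38) and 1 lower (HLA-E, -0.32), with 8.01% and 9.44% of 15028 genes called higher and lower. With the correction for GC content and length, 1 was called higher (B2M) and 1 lower (HLA-E, log2 fold change -0.26), with 3.22% and 4.17% of 18224 genes called. In each fit that left out any other single library, 0 members were called higher and 0 lower. Those fits called 155 to 213 genes higher and 208 to 262 lower. With all 6 libraries 432 genes (2.29% of those tested) were called higher and 498 (2.64%) lower, so calls were fewer in those fits for genes as a whole. HLA-B, HLA-C, HLA-F, TAP1, TAPBP and NLRC5 were called in 0 of 14 alternative fits.

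**Figure D2:**
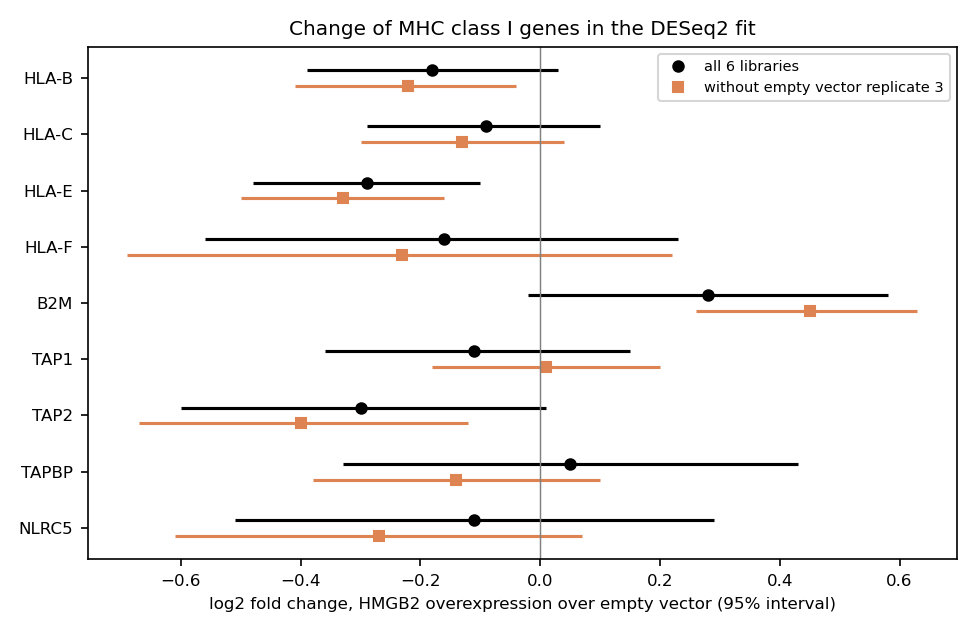
Log2 fold change of each member (x axis, HMGB2 overexpression over empty vector) with its 95% interval in the DESeq2 fit of all 6 libraries (black circles) and without empty vector replicate 3 (orange squares). B2M moves from 0.28 to 0.45, TAP2 from -0.30 to -0.40 and TAPBP from 0.05 to -0.14.

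Levels were compared between genes as TPM, that is, counts divided by the length of the canonical transcript and scaled to the same total in every library. B2M was the most abundant member at 1519 ± 206 TPM in empty vector and 1797 ± 101 TPM in overexpression cells (SD, n = 3). HLA-C followed at 291 ± 29.6 and 265 ± 27.2 TPM, HLA-B at 210 ± 22.9 and 180 ± 20 TPM, and HLA-E at 136 ± 15 and 108 ± 6.7 TPM. Heavy chains thus spanned a wide range of levels, and HLA-F lay far below the other three. TAP1 was at 51.3 ± 5.17 and 46.5 ± 1.93 TPM and TAPBP at 21.8 ± 6.21 and 21.8 ± 4.2 TPM. TAP2 was at 4.33 ± 0.78 and 3.42 ± 0.482 TPM, HLA-F at 3.49 ± 0.491 and 3.03 ± 0.308 TPM and NLRC5 at 1.88 ± 0.483 and 1.68 ± 0.298 TPM.

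Within each library the order of these TPM levels was the same, except that TAP2 lay above HLA-F in 5 of 6 libraries. TAP2 and HLA-F were also the 1 pair of neighbours whose library ranges overlapped. The order depends on the length and column used. With the length of all exons together HLA-E (229 TPM in empty vector) lay above HLA-B (134 TPM). With the sum of the stranded columns HLA-F (7.31 TPM) lay above TAP2 (3.47 TPM), though that sum may include reads of genes opposite HLA-F. A difference in cell number and in RNA per cell cannot be told apart in these bulk libraries.

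**Figure D3:**
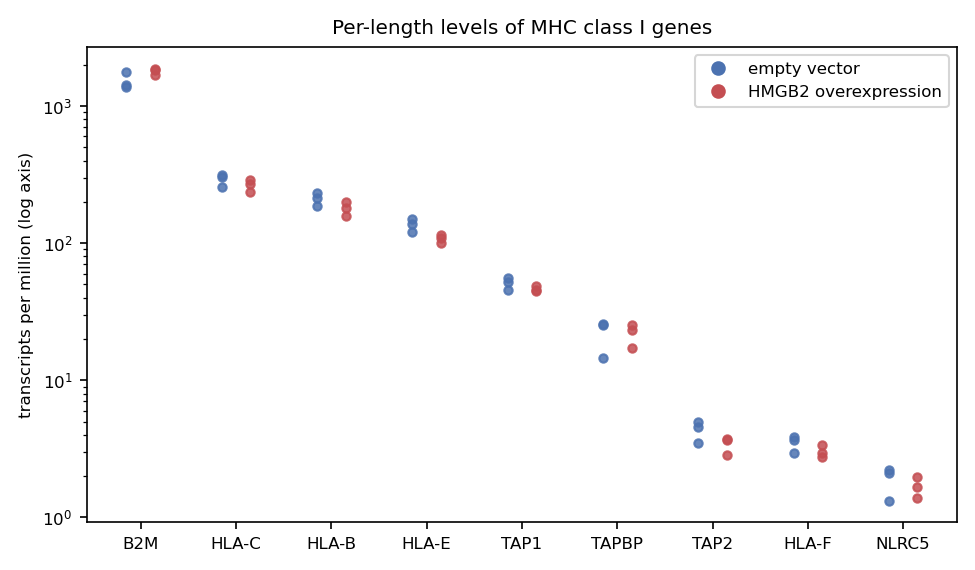
Level of each member in TPM (log axis) in every library, blue for empty vector and red for HMGB2 overexpression, in order of the mean. The points run from 1387 to 1875 TPM for B2M down to 1.32 to 2.2 TPM for NLRC5, and the ranges of TAP2 and HLA-F overlap.

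The invariant chain was set against 3 of the heavy chains it pairs with, a measure chosen after the values were seen. HLA-F was left out of the sum, so the ratio covers a part of B2M's partners. B2M TPM over the summed TPM of HLA-B, HLA-C and HLA-E was 2, 2.17 and 3.12 in empty vector libraries (2.43 ± 0.604, SD, n = 3) and 3.29, 2.79 and 3.78 in overexpression libraries (3.28 ± 0.495, SD, n = 3). Empty vector replicate 3 exceeded overexpression replicate 2, so the groups overlapped. With the length of all exons together the means were 1.27 and 1.73, so the size of the ratio depends on the transcript length used. The exact two-sided permutation test gave p = 0.2, where 0.1 is the smallest p that 3 against 3 allows.

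The genes whose log2 profile over the 6 libraries was most like the mean profile of the members were STAT5B, CPS1, IFIH1, CTC1 and CTDSP1. Their root mean square differences from it were between 0.0116 (STAT5B) and 0.0194 (CTDSP1), beside a median of 0.174 over 12125 genes. The members themselves did not share 1 profile: B2M (0.303), TAPBP (0.213), TAP1 (0.179) and NLRC5 (0.177) lay farther from their mean than that median, while HLA-C (0.0236) lay nearest to it.

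Other genes of the class I pathway were counted from lists written by hand. Beside each count of these lists, 2.29% of all genes tested were called higher and 2.64% lower. HLA-G held between 2 and 12 reads per library. Of 7 immunoproteasome and proteasome activator genes, 0 were called, and of 14 subunits of the constitutive proteasome core, which make the peptides, 0 were called. Of 13 interferon receptor and JAK-STAT genes tested, 0 were called, with a median log2 fold change of 0.06.

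Of 13 peptide loading chaperones and trimming enzymes, 2 were called higher and 0 lower, with a median log2 fold change of 0.10. CALR (calreticulin), the chaperone that holds heavy chain and B2M in the loading complex, rose from normalized counts of 34107, 34334 and 33772 to 44521, 50109 and 47750. All overexpression libraries exceeded all empty vector libraries. The log2 fold change was 0.48 (SE 0.09; DESeq2 Benjamini-Hochberg adjusted p = 1.82e-05, edgeR adjusted p = 0.0192), and CALR was called in all 14 alternative fits. NPEPPS, a cytosolic aminopeptidase, rose from 3774, 3883 and 3730 to 4589, 4627 and 4561, with a log2 fold change of 0.27 (SE 0.09; DESeq2 Benjamini-Hochberg adjusted p = 0.0336, edgeR adjusted p = 0.11). Of 11 class I related ligands tested, 1 was called higher: CD1D, which presents lipids, at 49.5, 62 and 68.7 against 98.1, 108 and 119 (log2 fold change 0.85, SE 0.25; DESeq2 Benjamini-Hochberg adjusted p = 0.0174, edgeR adjusted p = 0.0503). CD1D and NPEPPS were called in 7 and 6 of 14 alternative fits.

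Of 15 transcription factors that act on class I genes, 0 were called higher and 2 lower, with a median log2 fold change of -0.09. CIITA, the class II transactivator that also acts on class I promoters, fell from normalized counts of 1891, 1787 and 1255 to 1037, 1063 and 755. The highest overexpression library lay below the lowest empty vector library. The log2 fold change was -0.79 (SE 0.19; DESeq2 Benjamini-Hochberg adjusted p = 0.00174), and the call was lost with edgeR, at an adjusted p of 0.0597, as well as in the DESeq2 fit that left out empty vector replicate 1, at 0.0587. NFKB1, which encodes an NF-kB subunit, fell from 6464, 6554 and 5751 to 5138, 4745 and 4857, with a log2 fold change of -0.35 (SE 0.10; DESeq2 Benjamini-Hochberg adjusted p = 0.0183, edgeR adjusted p = 0.0799).

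IRF1, an interferon-response factor of class I promoters named here after its values were seen, had normalized counts of 521, 509 and 465 against 398, 384 and 322. Its groups did not overlap. IRF1 had a log2 fold change of -0.44 (SE 0.15) with a DESeq2 Benjamini-Hochberg adjusted p of 0.0525. With the stranded columns summed it was -0.50 with a DESeq2 adjusted p of 0.00113. The column used held 54.2% of that sum, which may include reads of genes on the opposite strand. NFKB1 was called in 8 and IRF1 in 5 of 14 alternative fits.

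The MHC class II genes, which present extracellular peptides and are driven by CIITA, were counted beside the members. Of 12 tested, 0 were called higher and 4 lower, all 12 log2 fold changes were negative, and their median was -0.35. Of all 18836 genes tested, 2.29% were called higher and 2.64% lower, and 9336 had a negative log2 fold change. HLA-DQA1 fell from normalized counts of 411, 472 and 471 to 307, 294 and 279 (log2 fold change -0.62, SE 0.14; DESeq2 Benjamini-Hochberg adjusted p = 0.000697, edgeR adjusted p = 0.0236). HLA-DRB1 fell by 0.33 on the log2 scale (DESeq2 adjusted p = 0.00504), HLA-DQB1 by 0.45 (DESeq2 adjusted p = 0.00573) and HLA-DMB, which helps load class II peptides, by 0.46 (DESeq2 adjusted p = 0.0264). HLA-DRA was at 28145, 28002 and 32679 against 25099, 24277 and 25890 (log2 fold change -0.24, DESeq2 adjusted p = 0.22) and CD74, the invariant chain of class II, at 98571, 97324 and 60673 against 69268, 74067 and 53999 (log2 fold change -0.38, DESeq2 adjusted p = 0.356). In CD74 empty vector replicate 3 again lay among the overexpression libraries. The count of class II genes called lower was 1 with edgeR, 0 in the DESeq2 fit that left out empty vector replicate 2 and 7 of 11 in the fit that left out replicate 3 of that group. Of all genes tested, 1.52% were called lower with edgeR and 9.46% without empty vector replicate 3. The difference between the class I and class II genes was not tested.

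**Figure D4:**
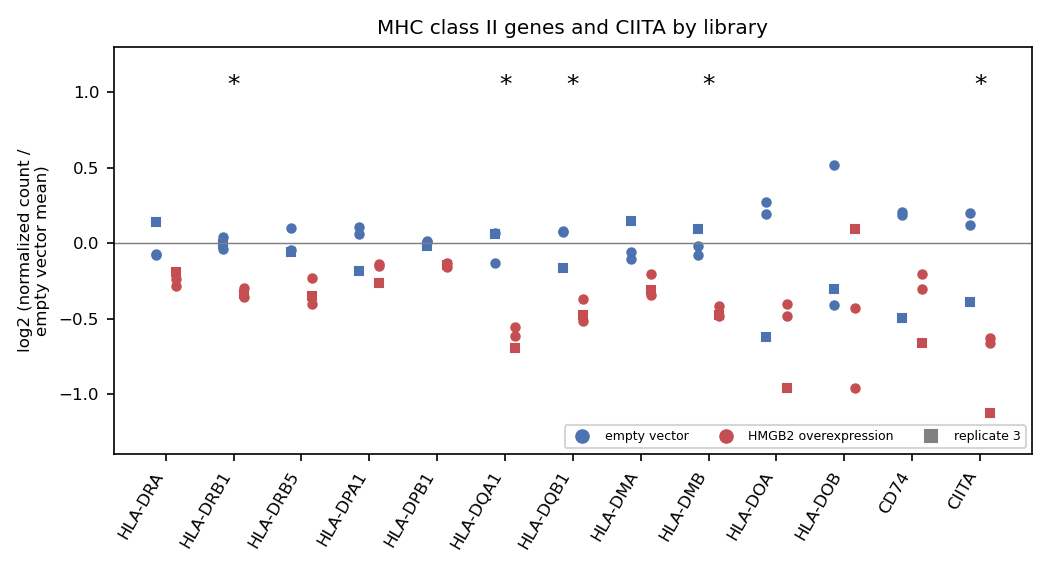
Log2 of the normalized count over the empty vector mean (y axis) for 12 MHC class II genes and CIITA in each library, blue for empty vector and red for HMGB2 overexpression; squares are replicate 3 and asterisks mark a DESeq2 adjusted p under 0.05. All overexpression points lie below all empty vector points in CIITA and in 8 of the 12 class II genes. These 8 include the 4 called, HLA-DQA1, HLA-DRB1, HLA-DQB1 and HLA-DMB. The pattern was found in 10.7% of all genes tested.

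Polycomb repressive complex 2, which is known to silence antigen presentation genes in some tumours, had 1 of 9 genes called higher and 1 lower. RBBP4, a histone-binding subunit, had a log2 fold change of 0.34 (SE 0.11; DESeq2 Benjamini-Hochberg adjusted p = 0.0432), and EZH2, the methyltransferase, of -0.29 (SE 0.09; DESeq2 adjusted p = 0.049). Both calls were lost with edgeR, at adjusted p of 0.11 and 0.117. CSPG4 was the 1 of 8 melanoma markers called (log2 fold change -0.63, SE 0.21; DESeq2 Benjamini-Hochberg adjusted p = 0.0446, edgeR adjusted p = 0.162), and 0 of 3 leukocyte markers tested were called.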

How the data were processed

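RNA was measured in 3 empty vector and 3 HMGB2 overexpression libraries, grouped by the genotype label. The authors trimmed reads with Trimmomatic, aligned them with STAR to hg38 and deposited raw read counts per gene, in which a read counts only if it maps to 1 place and 1 gene. The aligner version and annotation release are not given in the sources used here. The first count column (either strand) was used; its 4 summary lines, 16.7% to 24% of reads, were left out. Of 58302 IDs, 57532 matched GENCODE 44 symbols.

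Counts were tested with DESeq2 1.42.0 (R 4.3.3; Wald test on the group, independent filter at 0.1, Benjamini-Hochberg adjusted p under 0.05 over all genes), after checking on simulated data. Fold changes are unshrunken. Alternatives were edgeR 4.0.16 (quasi-likelihood, TMM), DESeq2 with TMM factors, with only genes of 10 counts in 3 libraries, without the independent filter, on both stranded columns summed, or blocked on the replicate number, leaving out each library, replicates 1 and 2 alone, and factors for GC content and length (mgcv 1.9.3). TPM were computed from the counts and GENCODE 44 lengths.

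The members and lists were chosen with earlier results of these data known. Named genes were the 9 members, HMGB2, every called gene of each list (at most 4, those with the smallest adjusted p) and the 5 genes of mean normalized count 100 or more nearest the members' mean profile; others named are given as context or as chosen after their values were seen. A gene of the pathway lists is not reported here.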

Additional observations from a re-analysis of the deposited data

How the results depend on the processing

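Genes called higher and lower numbered 432 and 498 with DESeq2 and 215 and 255 with edgeR. With the replicate block they numbered 886 and 940 of 14552 tested, and with replicates 1 and 2 alone 1203 and 1418. With the correction for GC content and length, 760 were called lower. Leaving out 1 library gave 155 to 1334 genes called higher and 208 to 1520 lower, the highest of both without empty vector replicate 3. Members called higher and lower were 0 and 0, and 1 and 1 with the block, with replicates 1 and 2 alone and with the GC and length correction; leaving out 1 library gave 0 to 1 higher and 0 to 2 lower. With the block, the log2 fold changes of HLA-E and B2M were -0.29 and 0.29, at DESeq2 adjusted p of 0.00199 and 0.00344. The main fit did not pair the libraries by replicate number. Deviations of same-numbered libraries correlated at 0.0912, 0.129 and 0.333 over 16692 genes. Between replicates 1 and 2, the unlike-numbered pairs gave 0.0958 and 0.201. Empty vector replicate 3 correlated at -0.134 and -0.237 with overexpression replicates 1 and 2. Overexpression replicate 3 correlated at -0.264 and -0.201 with empty vector replicates 1 and 2. Whether the numbers mark a shared batch was not tested. The sign of TAP1 changed without empty vector replicate 3 (0.01; leave-one-out range -0.20 to 0.01), and that of TAPBP changed without that library (-0.14), without overexpression replicate 2 (-0.04) and with replicates 1 and 2 alone (-0.02; leave-one-out range -0.14 to 0.17). The other 7 members kept their direction in all 14 alternatives. Of 308 counts of list genes called, 240 stayed within 1.5 times and 68 moved. The cause was not tested.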
